A study of Mus musculus with 10 samples.

Results

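The mitochondrial ribosomal protein genes were examined in CD8+ T cells kept with mouse breast cancer cells in the presence or absence of sodium acetate. Members were the protein-coding rows of the gene table whose symbol begins with Mrpl or Mrps followed by a digit, and 78 of the 57825 listed genes met this rule. The rule used names alone and no measured value. By the subunit in which each protein sits, 51 members belonged to the large subunit (the Mrpl genes with Mrps30 and Mrps18a, whose proteins are found in the large subunit in spite of their names) and 26 to the small subunit. The last member, Mrps36, carries a ribosomal name although its protein is known as a component of the 2-oxoglutarate dehydrogenase complex.

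CD8+ T cells from the spleens of female Balb/c mice were enriched with a magnetic kit, activated for 12 h on anti-CD3 with anti-CD28 and IL-2, and then co-cultured for 48 h with 4T1 cells, a mouse mammary carcinoma line. Sodium acetate was absent in the group CD8+4T1 (5 samples) and present at 5 mM, from 24 h before the co-culture, in the group CD8+4T1+NaAc (5 samples). Activation, the tumor cells and the mouse strain were shared by both groups, so that acetate was the only labelled difference, and T cells without tumor cells were not analysed here. The methods state that RNA came from purified T cells and do not say whether tumor cells were removed after the co-culture. The labels do not say whether the 5 samples of a group came from separate mice or cultures, so p-values measure the spread between these samples only, which may be technical.

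Mitochondria carry their own ribosome, the mitoribosome, which makes the few inner-membrane proteins of the respiratory chain and ATP synthase that are coded by mitochondrial DNA. Its ribosomal RNA is coded in the mitochondrion, whereas all of its proteins are coded in the nucleus, made in the cytosol and imported. Part of these proteins descend from those of bacterial ribosomes, and the others were added in mitochondria. T cells build up mitochondria and mitochondrial translation after activation, and mitochondrial translation is known to be needed for the effector functions of cytotoxic T cells.

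Stretches upstream of the members' start sites were searched for short sequences bound by 4 kinds of factors, namely NRF1, ETS proteins such as the GABP alpha subunit (coded by Gabpa), YY1 and E-box proteins such as MYC. RefSeq promoters of GRCm38.p6, from 250 bases before to 50 bases after the start of a gene, were at hand for 69 members. The windows below are shown because they hold the NRF1 palindrome (GCGCATGC followed by GC), the ETS core CCGGAAG or the YY1 core AAGATGG in members described further on or in members called lower. Each is a stretch of 60 bases upstream of the start, read 5′ to 3′ on the strand of the gene, with every match to a searched motif, on either strand, in capitals. The reverse of the ETS core reads CTTCCGG.
Mrpl9 (chr3:94443276-94443335, + strand): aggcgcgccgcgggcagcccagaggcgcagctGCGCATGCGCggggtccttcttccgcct
Mrpl32 (chr13:14613090-14613149, - strand): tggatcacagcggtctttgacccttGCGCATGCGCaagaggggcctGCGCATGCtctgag
Mrpl39 (chr16:84735335-84735394, - strand): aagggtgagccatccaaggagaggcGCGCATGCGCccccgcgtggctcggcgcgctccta
Mrps18c (chr5:100798576-100798635, + strand): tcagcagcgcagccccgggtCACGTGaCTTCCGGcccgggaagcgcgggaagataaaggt
Mrpl18 (chr17:12916282-12916341, - strand): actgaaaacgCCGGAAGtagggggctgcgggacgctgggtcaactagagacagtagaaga
Mrps16 (chr14:20393532-20393591, - strand): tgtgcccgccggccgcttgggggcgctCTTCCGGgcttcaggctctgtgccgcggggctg
Mrpl52 (chr14:54426835-54426894, + strand): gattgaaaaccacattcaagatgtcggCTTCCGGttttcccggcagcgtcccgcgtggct
Mrpl22 (chr11:58171584-58171643, + strand): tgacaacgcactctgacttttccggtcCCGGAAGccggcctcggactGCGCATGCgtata
Mrpl49 (chr19:6057938-6057997, - strand): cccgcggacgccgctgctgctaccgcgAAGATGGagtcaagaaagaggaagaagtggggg

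Searched on both strands of the whole promoters, the ETS core was the most common of these motifs, in 26 of the 69 members (37.7%) against 12.9% of the promoters of 17492 coding genes. The YY1 core was found in 13 members (18.8%) against 7.18% of coding genes. NRF1's palindrome of 10 bases occurred in 3 members (4.35%; Mrpl9, Mrpl32 and Mrpl39) against 1.47%, and its shorter part GCGCATGC, which the palindrome contains, in 8 members (11.6%) against 3.94%. The E-box CACGTG, by contrast, was found in 5 members (7.25%) and 8.91% of coding genes, and in Mrps18c it lies a single base away from the ETS core. A match describes letters in a window and is neither a binding site nor a cause of a change in level. Every count of motifs was left without a test.

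Levels were deposited as FPKM, in which fragments are divided by the listed length of the gene and by the depth of the library. The order of genes by level, here always by FPKM, therefore rests on the listed lengths. Mrps21, listed at 739 bases, held 486 to 1171 fragments in a sample. Mrpl13, lower in FPKM but listed at 7936 bases, held 1199 to 1586. Whether listed lengths match the transcripts in these cells was not tested. In 77 of the 78 members the mean over all 10 samples reached 0.5 FPKM, the level set for testing, and these means ran from 1.99 FPKM (Mrps35) to 65.4 FPKM (Mrps21). For comparison, the 15710 genes tested had a median of 4.91 FPKM and the 77 members one of 17.01 FPKM. Each value of a tested member rested on 95 to 1712 fragments. Mrpl53, a large-subunit protein added in mitochondria, was listed at 0 in each of the 10 samples and was not tested. Its span overlaps 2 other listed genes, and a listed 0 does not by itself show that the gene is silent.

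Libraries were alike in depth, at 16306447 to 18853726 fragments, but not in how much of it the listed genes held, which was 95.46% to 97.87% of fragments in CD8+4T1 and 89.85% to 92.07% in CD8+4T1+NaAc. The other fragments were not analysed here. Replicate 1 of CD8+4T1+NaAc stood apart with 20233 genes above 0, against 22291 to 25088 in the other samples. Several results that rest on it are therefore given with and without it. Cd8a, which defines the labelled cell type, was at 78.6 ± 2.34 FPKM (SD, n = 5) without and 76.5 ± 4.37 FPKM with acetate and was not called. Of all 12 T cell markers, however, 6 were called lower, among them Cd3d (log2 fold change -0.54), Cd3g (-0.53), Cd3e (-0.36) and Lck (-0.32), and Zap70 was called higher (0.27), with a median of -0.22. With every sample set to the same FPKM total 4 were lower and 4 higher (median -0.05), and with samples scaled to these markers themselves 3 were lower and 5 higher (median -0.04). They summed to 921 to 1028 FPKM in CD8+4T1 and to 808 to 975 FPKM in CD8+4T1+NaAc. Markers of epithelial and 4T1 cells moved with the groups, at 87.3 to 108 FPKM without acetate and 180 to 341 FPKM with it. Without acetate most of that sum came from Cd24a, Spint2 and Perp (43.6, 20.7 and 12.8 FPKM), with log2 fold changes of 0.20, -0.11 and 0.11. Of the 20 epithelial and 4T1 markers 12 were tested, 8 of which were called higher and none lower, with a median log2 fold change of 2.70. Krt5, Esrp1 and Sprr1a were at or near 0 throughout. Cd4, at 0.335 to 0.796 FPKM against 1.39 to 1.87 FPKM, and 2 of the 4 tested myeloid markers (S100a8 and Lyz2) were also higher with acetate. B cell markers summed to 3.92 to 4.91 and 4.55 to 6.24 FPKM (2 of 5 tested, none called, Ms4a1 and Pax5 at or near 0), all myeloid markers to 25.1 to 35.2 and 28.3 to 33.2 FPKM (S100a9 at 0), and NK cell markers to 37.1 to 45 and 37.9 to 51.7 FPKM (1 of 3 tested, not called). The part of T cell markers and of these other cells in the results on mitoribosomal genes was not tested, and in bulk samples fewer cells of a type cannot be told apart from less RNA per cell.

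Transcripts of mitoribosomal proteins were less abundant with acetate in a large share of the genes, by small amounts. The 78 members had a summed level of 1572 ± 89.0 FPKM without acetate and of 1273 ± 44.1 FPKM with it (SD, n = 5 in each group). The lowest sample without acetate, at 1424 FPKM, lay above the highest sample with it, at 1338 FPKM. As a share of all FPKM in a sample, a total that is weighted by gene length and takes in the cytosolic ribosomal genes described below, members took 0.458% to 0.494% without and 0.427% to 0.452% with acetate, again without overlap of the groups.

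Gene by gene, 38 members were called lower with acetate, 2 higher and 37 neither (limma on log2(FPKM + 0.1), Benjamini-Hochberg adjusted p under 0.05 over the 15710 genes tested). Lower members thus made up 49.4% of those tested, against a background of 19.0% of all genes, and higher members 2.60% against 17.6%. On the same deposited scale 6 of the 12 T cell markers were lower, with a median log2 fold change of -0.22. The median log2 fold change of members was -0.25, with a range from -0.98 to 0.38, against -0.02 for all genes tested, and 66 of the 77 lay below 0. No member passed adjusted p under 0.05 together with a log2 fold change beyond 1 in either direction. Of all genes, 1.60% did so downward and 4.87% upward. However, Mrps18c passed both limits when replicate 1 of CD8+4T1+NaAc was left out (-1.12, limma adjusted p = 6.19e-06). It also did so without replicate 1 or without replicate 4 of CD8+4T1 (-1.01 and -1.02). Without replicate 1 of both groups, Mrps18c (-1.15) and Mrps21 (-1.05) passed. At an unadjusted p under 0.05, whatever the size, limma counted 46 of the 77 members and 7218 of the 15710 genes tested. Groups did not overlap in 25 members, all lower with acetate, where 13.3% of all genes were apart in that direction, and no member was apart upward, where 13.1% of all genes were.

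Members are well expressed, and of all genes averaging 5 FPKM or more 30.2% were called lower and 15.4% higher. Among the 70 members at that level, 37 (52.9%) were lower and 2 higher, with a median log2 fold change of -0.31 against -0.08 for the 7800 genes at that level. Across the 77 members Spearman's correlation of log2 fold change with the mean level was -0.29, and across all genes tested -0.21. All points of these correlations share the same 10 libraries, and they are given as descriptions.

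**Figure D1:**
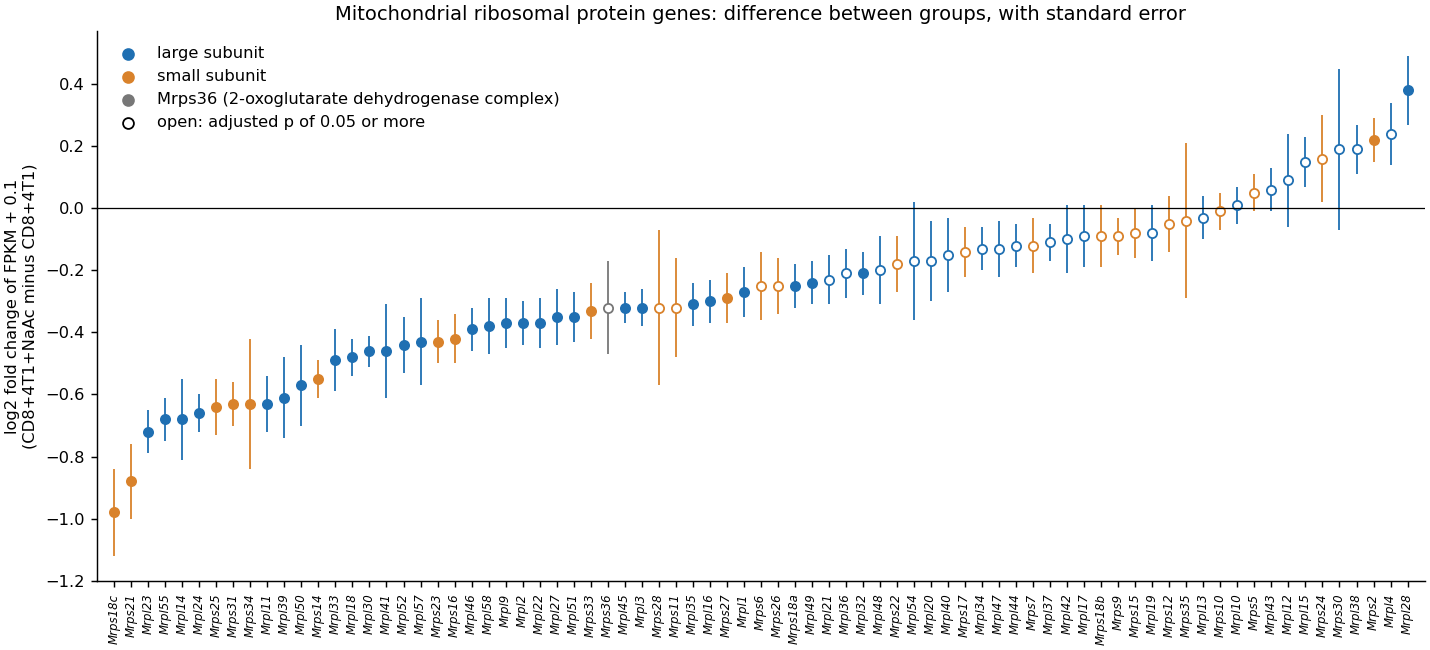
Log2 fold change of FPKM + 0.1 (CD8+4T1+NaAc minus CD8+4T1, vertical axis) of the 77 tested members in rising order, with bars of 1 standard error. Filled points were called at adjusted p under 0.05: 38 lie below 0 and 2, Mrps2 and Mrpl28, above it.

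**Figure D2:**
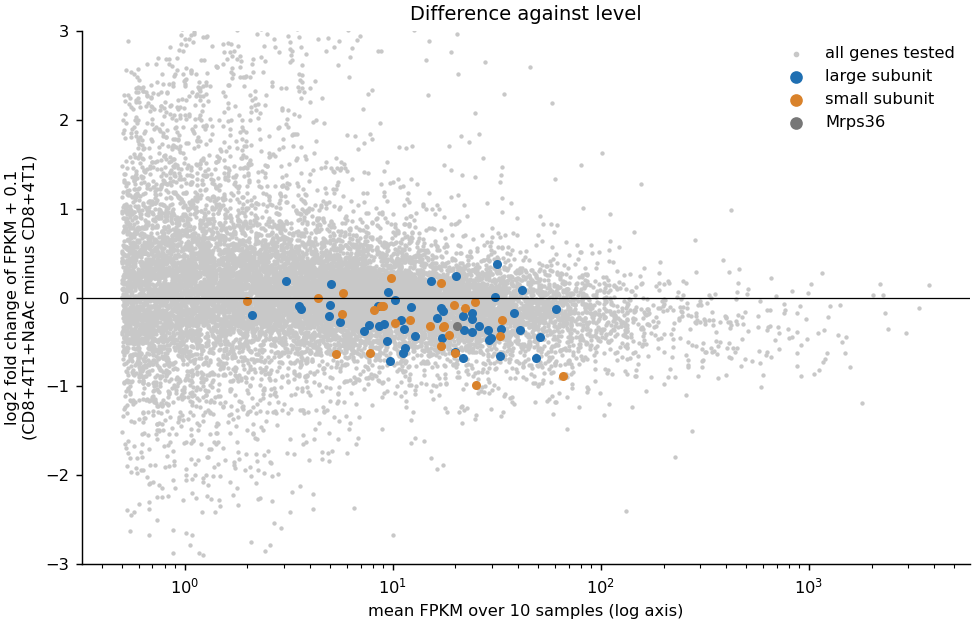
Log2 fold change of FPKM + 0.1 (CD8+4T1+NaAc minus CD8+4T1) against mean FPKM over the 10 samples on a log axis, for all 15710 genes tested (grey) and the members in color. Members sit in the well-expressed range, mostly under the zero line, and 71 other genes lie beyond the plotted range of the vertical axis.

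How many members were called lower depended on the scale on which samples were compared. Setting every sample to the same FPKM total moved the median of all genes from -0.02 to 0.15, and setting samples by the median ratio of the 12 T cell markers moved it to 0.16. On these scales the members' median became -0.08 and -0.07, with 47 and 46 of 77 below 0. With equal totals 21 members were called lower and 8 higher (27.3% and 10.4%, against 8.83% and 31.2% of all genes), and with T cell markers 17 and 6 (22.1% and 7.79%, against 7.65% and 29.4%). All of the 21 and all of the 17 were among the 38 called lower on the deposited scale. The members' median lay 0.24 below that of all genes on the deposited scale and 0.23 below it on either of the others. Each scaling divides all genes of a sample by a single factor and so shifts their fold changes almost alike. This gap could therefore hardly change, and neither it nor the shared calls are a check of the members' difference.

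**Figure D3:**
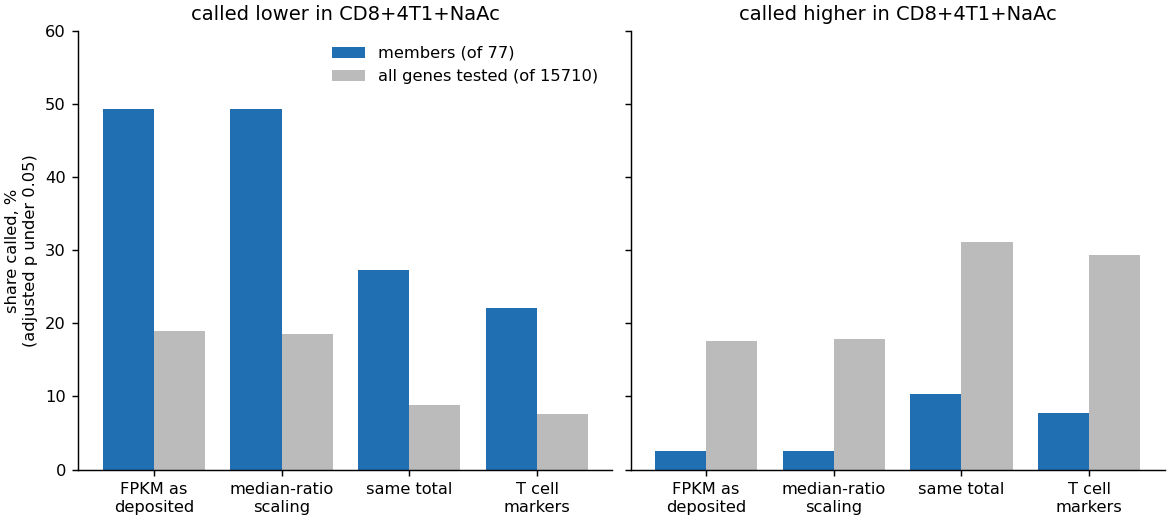
Share of the 77 members (blue) and of the 15710 genes tested (grey) called lower (left) and higher (right) in CD8+4T1+NaAc, in percent, under 4 ways of scaling the samples. The share of members called lower is above that of all genes under each, and falls from 49.4% to 27.3% and 22.1% when samples are set to the same total or to T cell markers.

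Members of both subunits were called lower. Of the 50 large-subunit members tested 28 were lower (56.0%, against 19.0% of all genes) and 1 higher, with a median log2 fold change of -0.26. Of the 26 small-subunit members 10 were lower (38.5%) and 1 higher, with a median of -0.25. Without replicate 1 of CD8+4T1+NaAc the counts of lower calls were again 28 and 10, where 22.6% of all genes were lower. The medians, however, were -0.27 for the large and -0.15 for the small subunit. With equal totals 14 large-subunit members were lower and 6 higher, and 7 small-subunit members were lower and 2 higher, where 8.83% of all genes were lower and 31.2% higher. With T cell markers these counts were 10 and 5, and 7 and 1, where 7.65% of all genes were lower and 29.4% higher. Whether the subunits differ was not tested. Summed levels of the small subunit were 450.6 to 515.8 FPKM without and 365 to 391.2 FPKM with acetate, and those of the large subunit 958.7 to 1116 FPKM and 843.1 to 928.3 FPKM. The ratio of the small to the large sum, in which the scale of a sample cancels, was 0.451 to 0.473 without and 0.421 to 0.447 with acetate. This ratio was thus lower in each of the 5 samples with acetate. Leaving out Mrps21, the most abundant member, chosen after its values were seen, the ratio was 0.375 to 0.400 without and 0.374 to 0.387 with acetate, with overlapping groups.

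Members were also divided by descent. Among 48 with a bacterial homologue 22 were lower and 2 higher (median -0.24), and among the 28 tested of the 29 added in mitochondria 16 were lower and none higher (median -0.31). In the small subunit, 4 of 17 with a bacterial homologue were lower (23.5%, near the 19.0% of all genes, median -0.12) and 6 of 9 particular to mitochondria were (median -0.33), while in the large subunit these counts were 18 of 31 (median -0.27) and 10 of 19 (median -0.24). With equal totals or T cell markers the median of the small-subunit bacterial homologues turned to 0.06 and 0.07. The other 3 classes had medians below 0, but those of large-subunit members particular to mitochondria were -0.06 and -0.05. Of these 19, 4 were lower and 2 higher with equal totals, and 2 and 2 with T cell markers. For all 28 tested these counts were 7 and 2, and 5 and 2. For the 48 bacterial homologues they were 14 and 6, and 12 and 4. Of all genes 8.83% were lower and 31.2% higher with equal totals, and 7.65% and 29.4% with T cell markers. The difference between classes was not tested.

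Of the proteins of the small subunit, Mrps18c gave the largest fall of all members. It is the form of bacterial ribosomal protein S18 that sits in the small subunit at the place of the bacterial protein. Mrps18c (ENSMUSG00000016833, chromosome 5, listed at 100946493 to 100952337) stood at 30.8, 38.04, 32.7, 30.2 and 34.3 FPKM in replicates 1 to 5 of CD8+4T1, and at 24.6, 14.6, 15.1, 14.3 and 16.6 FPKM in those of CD8+4T1+NaAc. It fell by 0.98 on the log2 scale (SE 0.14, limma adjusted p = 0.000355). All samples with acetate were lower than all samples without, and replicate 1 with acetate, at 24.6 FPKM, stood nearest to the other group. Without that replicate the log2 fold change of Mrps18c was -1.12. Its span overlaps a predicted gene on the same strand (Gm43511).

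Mammals have 3 relatives of S18. Mrps18a, which sits in the large subunit, was at 10.8, 12.02, 11.8, 13.04 and 11.8 FPKM without and 10.3, 10.7, 9.01, 10.5 and 9.35 FPKM with acetate. This was a fall by 0.25 on the log2 scale (SE 0.07, limma adjusted p = 0.0130), and the highest value with acetate (10.7 FPKM) lay just under the lowest without (10.8 FPKM). The call was lost with equal totals (log2 fold change -0.08, limma adjusted p = 0.378) and with T cell markers (-0.07, limma adjusted p = 0.564). Mrps18b, a further small-subunit protein, had 8.02, 10.6, 8.84, 9.01 and 9.89 FPKM without and 7.14, 9.22, 8.67, 10.3 and 8.33 FPKM with acetate. The groups of Mrps18b lay across each other (log2 fold change -0.09, SE 0.10, limma adjusted p = 0.543), and 35.8% of the fragments given to this protein's name were listed under other entries, so its level is uncertain. Whether the 3 changes differ from each other was not tested.

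Mrps21, the homologue of bacterial S21 and the highest of all members, was listed at 67.2, 85.1, 94.5, 96.2 and 80.8 FPKM without acetate and at 57.9, 43.7, 45.5, 38.9 and 44.2 FPKM with it (ENSMUSG00000054312, chromosome 3, 95769946 to 95778831). The groups did not overlap, with replicate 1 lowest without and highest with acetate, and the fall came to 0.88 on the log2 scale (SE 0.12, limma adjusted p = 0.000280). Of the other 8 small-subunit members called lower, Mrps34 (log2 fold change -0.63), Mrps14 (-0.55), Mrps23 (-0.43), Mrps16 (-0.42), Mrps33 (-0.33) and Mrps27 (-0.29) are given by their fold alone. Replicate 1 with acetate, at 28.1 FPKM, was the highest sample of Mrps34, and without it the log2 fold change of Mrps34 was -0.86. The remaining pair, Mrps25 and Mrps31, was added in mitochondria.
Mrps25 had 5.46, 6.90, 6.52, 7.48 and 6.24 FPKM without and 3.85, 4.47, 4.18, 3.95 and 4.18 FPKM with acetate, a fall by 0.64 (log2 scale, SE 0.09, limma adjusted p = 0.000245). Its span overlaps Nr2c2 on the opposite strand, a gene that was not called (log2 fold change 0.03). Mrps31 was at 9.22, 9.67, 9.34, 9.26 and 9.98 FPKM against 6.17, 6.03, 6.17, 5.21 and 6.93 FPKM, with all samples of one group above all of the other (log2 fold change -0.63, SE 0.07, limma adjusted p = 9.18e-05).

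Among small-subunit members that did not pass the test, 3 are described here. Mrps12, the homologue of bacterial S12 at the decoding center, had 21.3, 26.8, 27.7, 28.7 and 21.8 FPKM without and 25.6, 24.1, 24.004, 24.7 and 22.5 FPKM with acetate, and the latter values lay within the span of the former (log2 fold change -0.05, SE 0.09, limma adjusted p = 0.678). Mrps10 was among the members nearest to no difference, at 4.41, 4.17, 4.24, 4.49 and 4.70 FPKM against 4.10, 4.30, 4.31, 4.56 and 4.62 FPKM (log2 fold change -0.01, SE 0.06). The least abundant tested member, Mrps35, had 1.75, 2.20, 1.92, 1.91 and 2.00 FPKM without and 0.867, 2.66, 1.85, 2.37 and 2.37 FPKM with acetate. Replicate 1 with acetate was thus below and 3 other samples with acetate above every sample without it, and the standard error was correspondingly wide (log2 fold change -0.04, SE 0.25). Without that replicate Mrps35 was at 0.22 on the log2 scale and was still not called.

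**Figure D4:**
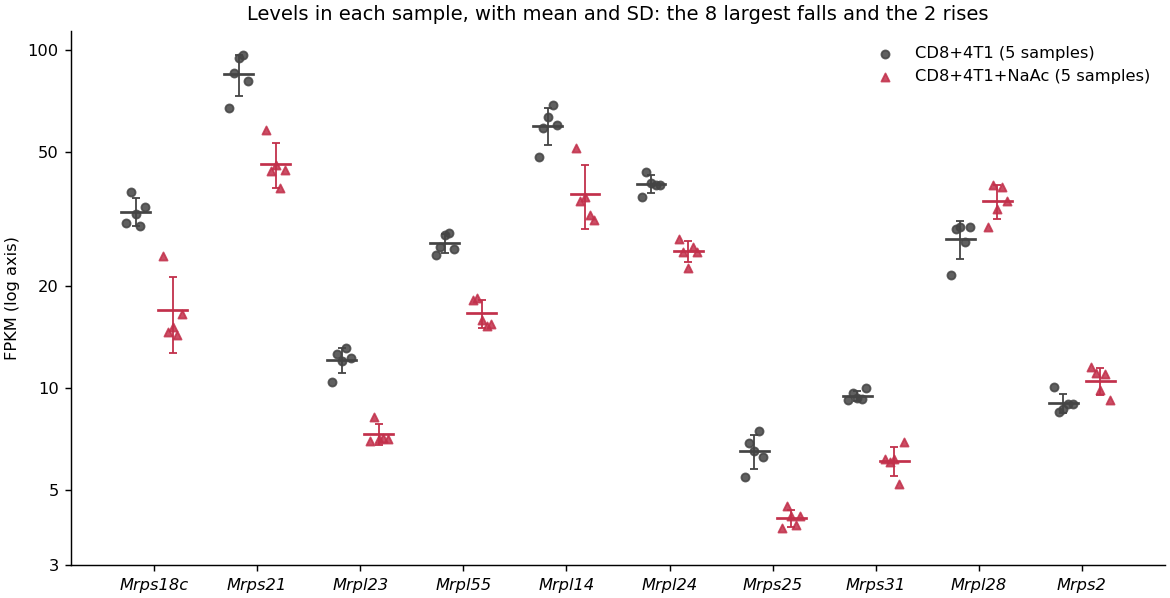
FPKM (log axis) of the 8 members with the largest falls and the 2 that rose, in each sample of CD8+4T1 (circles) and CD8+4T1+NaAc (triangles), with lines at the mean and bars of 1 SD (n = 5 in each group). Triangles lie under all circles in 7 of the 8 falls, the exception being Mrpl14, while the groups of Mrpl28 and Mrps2 overlap.

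Among large-subunit proteins, the largest fall was that of Mrpl23, whose bacterial homologue lies at the exit of the tunnel for the nascent chain (ENSMUSG00000037772, chromosome 7, 142086423 to 142094484). It was at 10.4, 12.6, 11.99, 13.1 and 12.3 FPKM without and 6.97, 8.21, 7.06, 7.13 and 7.09 FPKM with acetate, or 0.72 lower on the log2 scale (SE 0.07, limma adjusted p = 5.07e-05). Every sample with acetate was below every sample without it. Mrpl55 showed the same order of samples, with 24.8, 26.1, 28.3, 28.8 and 25.8 FPKM against 18.2, 18.5, 15.9, 15.2 and 15.5 FPKM (log2 fold change -0.68, SE 0.07, limma adjusted p = 6.46e-05). Mrpl24, another protein with a counterpart near the bacterial exit tunnel, had the lowest adjusted p of these genes. Its levels were 36.6, 43.5, 40.4, 39.8 and 39.9 FPKM without and 27.5, 25.3, 22.7, 26.1 and 25.3 FPKM with acetate (log2 fold change -0.66, SE 0.06, limma adjusted p = 3.51e-05). Rrnad1, on the opposite strand within reach of the same span, was itself called lower (-0.20).

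Mrpl14, which lies on the face that meets the small subunit, was called lower although its groups overlapped. It had 48.3, 58.8, 63.1, 68.4 and 59.8 FPKM without and 51.2, 35.8, 36.8, 32.4 and 31.3 FPKM with acetate, and only replicate 1 with acetate reached into the other group. The fall by 0.68 on the log2 scale (SE 0.13, limma adjusted p = 0.00254) became 0.80 when that replicate was left out. Tmem63b, which overlaps Mrpl14 on the opposite strand, was also called lower (-0.31), and reads of overlapping genes cannot be told apart where no strand setting is given.

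Mrpl52, one of the 3 most abundant members, also had groups that met, at 49.6, 53.9, 64.2, 66.8 and 58.9 FPKM without and 40.3, 50.03, 41.4, 41.95 and 41.9 FPKM with acetate. Replicate 2 with acetate, at 50.03 FPKM, came just above replicate 1 without it, and the gene fell by 0.44 on the log2 scale (SE 0.09, limma adjusted p = 0.00315). Mrpl34, second in abundance and the homologue of bacterial L34, was not called (log2 fold change -0.13, SE 0.07, limma adjusted p = 0.155). It lay at 62.2, 69.1, 63.2, 68.5 and 56.8 FPKM against 60.1, 60.3, 62.7, 52.2 and 56.2 FPKM, which overlap.

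Mrpl58 and Mrpl44 code for large-subunit proteins related to enzymes. Mrpl58, a peptidyl-tRNA hydrolase that frees stalled ribosomes, had 7.09, 8.55, 8.08, 8.87 and 8.71 FPKM without and 6.13, 7.23, 6.40, 5.45 and 6.54 FPKM with acetate. It fell by 0.38 on the log2 scale (SE 0.09, limma adjusted p = 0.00572), with replicate 2 with acetate above replicate 1 without it. Its call too was lost with equal totals (log2 fold change -0.20, limma adjusted p = 0.0533) and with T cell markers (-0.20, limma adjusted p = 0.117). Mrpl44, which has a ribonuclease III-like fold, was not called at 17.4, 18.1, 17.5, 17.5 and 18.7 FPKM against 13.9, 15.9, 16.7, 17.6 and 18.1 FPKM (log2 fold change -0.12, SE 0.07). Its 3 lowest samples with acetate were below all samples without, and the others lay among them. Whether the changes of Mrpl58 and Mrpl44 differ was not tested.

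The stalk, on which translation factors land, is built from the products of Mrpl10 and Mrpl12, and neither gene was called. Mrpl12 was at 31.1, 41.3, 42.2, 43.9 and 41.6 FPKM without and 28.9, 51.7, 45.2, 44.5 and 45.04 FPKM with acetate (log2 fold change 0.09, SE 0.15, limma adjusted p = 0.672). Replicate 1 was the lowest sample in each group, and the other 4 samples with acetate lay above all samples without it. Without replicate 1 of CD8+4T1+NaAc the log2 fold change of Mrpl12 was 0.23 (limma adjusted p = 0.0850), without replicate 1 of CD8+4T1 it was 0.00, and without both it was 0.14. Mrpl10 was at 33.4, 29, 29.98, 29.7 and 31.5 FPKM without and 27.4, 33.9, 30.01, 31.05 and 32.8 FPKM with acetate, with a log2 fold change of 0.01 (SE 0.06). Mrpl13, the homologue of bacterial L13, was likewise near no difference, at 9.25, 9.998, 10.6, 11.2 and 10.4 FPKM against 11.3, 10.6, 9.15, 10.1 and 9.34 FPKM (log2 fold change -0.03, SE 0.07). In all 3 genes the groups overlapped.

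On the deposited scale only Mrpl28 and Mrps2 were called higher, and both were so with equal totals and T cell markers, together with 6 and 4 further members. Mrpl28, the homologue of bacterial L28, had 21.6, 29.5, 29.996, 27.05 and 29.9 FPKM without and 29.9, 39.8, 33.9, 39.2 and 35.8 FPKM with acetate, a rise of 0.38 on the log2 scale (SE 0.11, limma adjusted p = 0.0181). Replicate 1 with acetate was level with the upper samples without, and the other 4 lay above them. Mrps2, the homologue of bacterial S2, had 10.05, 8.48, 8.66, 8.96 and 8.97 FPKM without and 11.5, 11.1, 9.84, 10.98 and 9.20 FPKM with acetate (log2 fold change 0.22, SE 0.07, limma adjusted p = 0.0384). A single sample without acetate, replicate 1, exceeded the lowest 2 with it. Under leave-one-out fits Mrps2 was called in 3 of 10 and Mrpl28 in all 10.

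Mrps30 and Mrpl48 are the other members of low level. Mrps30 had 3.03, 2.92, 2.72, 2.46 and 2.72 FPKM without and 1.40, 3.31, 3.74, 4.24 and 4.17 FPKM with acetate, so that replicate 1 with acetate was below and the other 4 above all samples without (log2 fold change 0.19, SE 0.26, limma adjusted p = 0.612). Without that replicate it was at 0.46 and was called higher. For Mrpl48 the values were 2.04, 2.33, 1.96, 2.48 and 2.44 FPKM against 2.25, 1.70, 2.04, 1.81 and 1.93 FPKM (log2 fold change -0.20, SE 0.11), with overlapping groups and with 18.7% of its fragments listed under other entries of the same name. Mrps36 of the 2-oxoglutarate dehydrogenase complex had 14.99, 27.8, 25.8, 22.5 and 22.7 FPKM without and 16.9, 18.5, 18.8, 15.4 and 19.6 FPKM with acetate. It was not called (log2 fold change -0.32, SE 0.15, limma adjusted p = 0.109), and replicate 1 without acetate was the lowest of all 10 samples. Without that sample Mrps36 was at -0.47 and was called lower.

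Of the 38 members called lower, 33 were called in each of the 10 fits that leave out 1 sample. The other 5 were Mrps34, Mrpl41, Mrpl57, Mrpl49 and Mrpl32, named here because they lost the call. Mrps34, Mrpl57 and Mrpl32 kept it only when replicate 1 of CD8+4T1+NaAc was left out. In that fit 38 members were lower (49.4%, against 22.6% of all genes) and 4 higher (5.19% against 21.7%). The members' median log2 fold change was then -0.24.

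The share of members called lower was highest among short genes. Of 19 members with a listed gene length under 1500 bases 11 were lower (57.9%, median log2 fold change -0.37), of 27 with 1500 to under 3000 bases 12 were (44.4%, median -0.24), and of 31 with at least 3000 bases 15 were (48.4%, median -0.21). Protein-coding genes averaging 5 FPKM or more stood at 47.2% of 544, 33.7% of 1645 and 26.9% of 4864, in the same 3 classes, with medians of -0.28, -0.11 and -0.04. Spearman's correlation of log2 fold change with gene length was 0.23 over the 77 members and 0.15 over all genes tested, again as a description over the same libraries. The part of length in the members' difference was not tested.

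**Figure D5:**
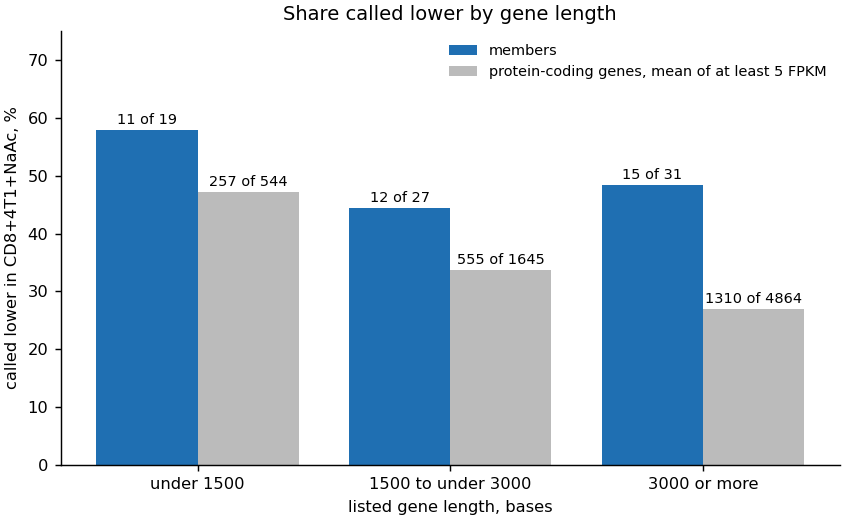
Share called lower in CD8+4T1+NaAc, in percent, by listed gene length in bases, for the 77 members tested (blue) and protein-coding genes averaging 5 FPKM or more (grey), with the counts above the bars. Members exceed the other genes in each class, from 57.9% against 47.2% in the shortest to 48.4% against 26.9% in the longest.

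Many members share their upstream stretch with a gene read in the other direction. A protein-coding gene that starts within 1000 bases on the opposite strand was found for 23 of the 77 tested members (29.9%), compared with 12.5% of all tested protein-coding genes. In these pairs 12 members were lower, and the partner was lower in 4, higher in 1, not called in 17 and not tested in 1. Lower calls thus made up 18.2% of the 22 tested partners, close to the 19.0% of all genes. The 4 lower partners were Fau (-0.81), which codes for a ribosomal protein of the cytosol beside Mrpl49, Ndufs6 (-1.18), a subunit of respiratory complex I beside Mrpl36, Psma2 (-0.32), a proteasome subunit beside Mrpl32, and Zfp189 (-0.32) beside Mrpl50. Helq, across from Mrps18c, was not called (0.09), nor was Sars2, a mitochondrial seryl-tRNA synthetase across from Mrps12 (-0.10). The partner called higher was Pnpla7 (0.31), beside Mrpl41. All these values are log2 fold changes. The 5 called partners are named for their calls, and Helq and Sars2 because they lie across from members described above.

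Calls and promoter motifs stood as follows. The NRF1 palindrome was in the promoters of 3 of the 37 members called lower for which a promoter was at hand and of none of the 32 others. Its part GCGCATGC was in 5 of the 37 (13.5%) and 3 of the 32 (9.38%). For the ETS core these numbers were 16 and 10, for the YY1 core 6 and 7, and for the E-box 2 and 3. Mrpl9 and Mrpl39, 2 of the 3 with the palindrome, were called lower also with equal totals, and Mrpl32 was not. Transcripts of the factors themselves were lower for Nrf1 (4.01 ± 0.418 to 3.20 ± 0.333 FPKM, SD, n = 5, log2 fold change -0.32, limma adjusted p = 0.0236) and Gabpa (14.8 ± 0.877 to 11.96 ± 1.13 FPKM, SD, n = 5, log2 fold change -0.30, limma adjusted p = 0.00676). Neither was called with equal totals or T cell markers. Yy1 (log2 fold change -0.12) and Myc (0.16) were not called.

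Other genes of mitochondrial translation and its control were counted from lists. In 6 lists of such genes, which together held 82 genes, 14 of the 81 tested were lower (17.3%, against 19.0% of all genes) and 9 higher (11.1% against 17.6%), with a median log2 fold change of -0.06. With equal totals these counts turned to 3 lower (3.7% against 8.83% of all genes) and 25 higher (30.9% against 31.2%), and the difference from all genes was not tested. With T cell markers they were 3 (3.7% against 7.65%) and 21 (25.9% against 29.4%). Among 5 mitoribosomal proteins whose symbols do not begin with Mrp, Chchd1 alone was called (62.2 ± 7.49 to 40.6 ± 3.17 FPKM, SD, n = 5, log2 fold change -0.61, limma adjusted p = 0.000378), and its groups did not overlap.

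Of 12 translation factors 5 were lower and 1 higher, where 19.0% of all genes were lower and 17.6% higher. The lower ones included Mrrf, the ribosome recycling factor (3.07 ± 0.232 to 2.24 ± 0.469 FPKM, SD, n = 5, log2 fold change -0.46), Mtif3, the initiation factor that binds the small subunit (2.81 ± 0.351 to 2.14 ± 0.281 FPKM, -0.38), and Mtrfr, a rescue factor (5.44 ± 0.411 to 4.41 ± 0.398 FPKM, -0.30). With equal totals none of the 12 was lower and 2 were higher, and with T cell markers none and 1. Of 26 assembly and rRNA maturation factors 2 were lower and 2 higher (7.69% in each direction, below the shares of all genes), which included Mettl15, a methyltransferase of the small-subunit rRNA (1.69 ± 0.141 to 2.33 ± 0.171 FPKM, 0.44), Noa1, a GTPase of mitoribosome assembly (6.55 ± 0.663 to 8.79 ± 0.214 FPKM, 0.42), and Rbfa, an assembly factor of the small subunit (20.1 ± 1.95 to 16.2 ± 2.18 FPKM, -0.31). With equal totals or T cell markers none of the 26 was lower, Rbfa was at -0.14 and -0.13, and 4 and 5 were higher, where 31.2% and 29.4% of all genes were higher.

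Mitochondrial aminoacyl-tRNA synthetases load tRNAs with amino acids. The list of 20 also took in Qrsl1, Gatb and Gatc, which are not synthetases themselves and were not called. Of these 20 genes 5 were higher and 1 lower (median log2 fold change 0.11), where 17.6% of all genes were higher. With equal totals 11 were higher and none lower, where the share of all genes called higher also went up, to 31.2%. Lars2, the leucyl-tRNA synthetase, had the largest change, at 7.94, 5.66, 7.58, 7.91 and 8.15 FPKM without and 12.7, 13.4, 12.9, 14.1 and 12.7 FPKM with acetate (log2 fold change 0.82, SE 0.09, limma adjusted p = 0.000103). All samples with acetate were above all without. Vars2 (2.07 ± 0.461 to 2.91 ± 0.403 FPKM, SD, n = 5, log2 fold change 0.49) and Aars2 (2.53 ± 0.467 to 3.24 ± 0.272 FPKM, 0.36) rose with overlapping groups.

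In the list of mitochondrial DNA maintenance and transcription 3 of 10 were lower and 1 higher, which turned to 2 and 4 with equal totals and 2 and 2 with T cell markers. The lower ones were Slirp, which stabilizes mitochondrial mRNAs (2.39 ± 0.541 to 0.863 ± 0.265 FPKM, SD, n = 5, log2 fold change -1.40, limma adjusted p = 0.00128), the transcription elongation factor Tefm (7.02 ± 0.459 to 4.92 ± 0.749 FPKM, -0.52) and Tfam, which packages mitochondrial DNA (12.2 ± 0.732 to 10.1 ± 0.641 FPKM, -0.27). The groups of all 3 did not overlap. In the list of nuclear regulators 2 of 8 tested genes were lower, the Nrf1 and Gabpa given above, and none was higher. With equal totals none was lower and 4 were higher, and with T cell markers none and 3. Across all genes 19.0% were lower and 17.6% higher as deposited, and 8.83% and 31.2% with equal totals.

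The mitoribosome translates the mRNAs of the mitochondrial genome. Of its 13 protein-coding genes 2 were lower (mt-Atp8, log2 fold change -2.38, and mt-Nd4l, -0.97), which is 15.4% against 19.0% of all genes. The first stood at only 6.81 ± 1.76 FPKM without and 1.42 ± 0.953 FPKM with acetate (SD, n = 5). Groups of mt-Nd4l overlapped, at 29.7 ± 12.9 and 15.1 ± 6.86 FPKM (limma adjusted p = 0.0493). None of the 13 was higher and the median was 0.06. Without replicate 1 of CD8+4T1+NaAc 3 were lower, where 22.6% of all genes were, and the median was -0.02. With equal totals 1 was lower and 4 were higher (30.8%, against 31.2% of all genes). Their sum was 10126 to 11775 FPKM without and 10779 to 12375 FPKM with acetate, with overlap of the groups. For the cytosolic ribosome, 92 listed protein-coding genes were taken by symbol (Rpl or Rps and a number, Rplp and a number, or Rpsa, leaving out the Rps6k kinases and Rps19bp1). This rule takes in 6 entries with -ps in the symbol, which marks pseudogene copies, and misses Fau. Of 86 tested 53 were lower (61.6%) and none higher, with a median log2 fold change of -0.42, and with equal totals 40 were lower and 3 higher, with a median of -0.24. Leaving out the -ps entries gave 51 lower of 82. Without replicate 1 of CD8+4T1+NaAc 52 were lower and 3 higher on the deposited scale, where 22.6% of all genes were lower and 21.7% higher. They summed to 40708 to 51896 FPKM without and to 29690 to 38773 FPKM with acetate. Whether these sets differ from the members was not tested.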

How the data were processed

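RNA of 10 samples was sequenced after preparation with a NEBNext Ultra kit. The authors deposited FPKM, 1 column per sample, with positions, biotype and gene length (an other, unnormalized column). Per the labels' processing notes fastp, HISAT2 2.0.5, StringTie 1.3.3b and featureCounts 1.5.0-p3 were used, and the methods name DESeq2 as the authors' test. Genome build, annotation and strand setting are not given in the sources used here. Positions are listed as in the table: of 78 members, all found in GENCODE M21 (GRCm38), 1 has the same start and end there. No sample column was left unmapped (0).

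FPKM times gene length gave whole fragments for 100% of values (within 0.1). The fit used log2(FPKM + 0.1) for genes averaging 0.5 FPKM or more, with limma 3.58.1 (trend and robust moderation) in R 4.3.3, on the 5 samples of each group without block. The fit was tested on simulated data, in which part of the changed genes were missed, so that a gene not called is not shown to be unchanged. Fold changes understate those of low genes. Tables and plots used Python 3.11.15, pandas 2.3.3, numpy 2.4.6 and matplotlib 3.10.9.

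Members and lists were chosen with earlier results of these data known. Members given in every sample are the 8 largest called falls and up to 8 rises, the 3 highest and 3 lowest in level, the Mrps18 relatives, Mrpl12, Mrpl58, Mrpl44, Mrps12, Mrps36, those not tested and the 3 nearest to 0, and up to 3 called genes of each pathway list. Alternatives were pseudocounts of 1 and 0.01, other filters, 3 other scalings, other moderation, sample weights, a replicate block, voom on recovered fragments, protein-coding genes alone, adjusted p under 0.01, and samples left out. No pairing by replicate number was seen: samples of the same number correlated at 0.037, -0.012, -0.028, 0.069 and 0.006 in their deviations from the group means. Such correlations over all genes cannot exclude that samples of equal number share a source.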

Additional observations from a re-analysis of the deposited data

Results flagged for a closer look

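In 58 sets of 5 values (the named members and sums in each group) 6 had an extreme sample set apart from the others by Dixon's ratio, the gap to the nearest sample over the whole range, with a limit of 0.71. Chance gives about 1 in 20, or 2.9 of 58. Replicate 1 with acetate was the highest for Mrps18c (0.734) and the lowest for Mrps30 (0.773) and Mrpl12 (0.742). Replicate 2 with acetate was the highest for Mrpl23 (0.862) and Mrpl52 (0.818). Replicate 1 without acetate was the lowest for Mrpl12 (0.828). Mrpl12 was thus lowest in replicate 1 of both groups.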

How the results depend on the processing

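Members called lower (38) numbered 33 to 38 without 1 sample in turn, where 16.1% to 22.6% of all genes were lower. They numbered 21 with equal totals and 17 with T cell markers. A further alternative, chosen after seeing the data, kept tested members that overlap no other gene averaging 0.5 FPKM or more. Those kept also had under 5% of fragments in other entries of the same protein. Of the 46 members left, 23 were lower (fewer genes tested), against 19.0% of all genes. Members called higher (2) numbered 1 without a filter or without trend and robust moderation, 8 with equal totals and 6 with T cell markers. They numbered 5 with sample weights or without replicate 1 of both groups, and 0 at adjusted p under 0.01 (limma). At an unadjusted p under 0.05, in either direction, limma counted 46 members and 7218 of the 15710 genes tested. Without 1 sample in turn, members called higher numbered 1 to 4, where 15.1% to 21.7% of all genes were higher. The count was 1 without replicate 2, 3 or 5 of CD8+4T1 or 2 or 4 of CD8+4T1+NaAc, and 4 without replicate 1 of the latter. The members' median moved to -0.08 and -0.07 under the same 2 scalings. Genes of the pathway lists called lower (14) numbered 9 without a filter, 7 at a mean of at least 5 FPKM (fewer genes tested), 3 with equal totals or T cell markers, 6 at adjusted p under 0.01 and 8 to 17 without 1 sample (8 without replicate 3 of CD8+4T1, 9 without its replicate 2 or 5). Those called higher (9) numbered 4 without a filter, 5 at a mean of at least 5 FPKM, 25 with equal totals, 21 with T cell markers, 3 at adjusted p under 0.01 and 4 to 11 without 1 sample (4 without replicate 2 of either group, 5 without replicate 5 of CD8+4T1 or 3 of CD8+4T1+NaAc). Over all genes, lower calls went from 2978 to 1387, 1202 and 1870 and higher calls from 2764 to 4900, 4620 and 1832 with equal totals, T cell markers and adjusted p under 0.01, and higher calls to 1257 at a mean of at least 5 FPKM. The cause of these shifts was not tested.

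Named members that changed sign were all without a call. With equal totals and T cell markers they were Mrpl34 (0.04, 0.05), Mrps35 (0.13, 0.14), Mrps18b (0.09, 0.09), Mrpl44 (0.06, 0.06), Mrps12 (0.12, 0.13), Mrps10 (0.17, 0.17) and Mrpl13 (0.15, 0.15). Mrps35 was at 0.10 with sample weights, 0.19 without replicate 1 of both groups and -0.15 to 0.22 without 1 sample, Mrps10 at 0.01, 0.02 and -0.03 to 0.02, Mrpl13 at -0.07 to 0.01 and Mrpl10 at -0.02 to 0.06 without 1 sample.

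Pairing by replicate number was neither seen nor excluded (only replicates 1 and 4 correlated best with their own number). With the replicate block 36 members were lower and 3 higher. The fewest fragments of a tested member in a sample were 95 (Mrps28), and differences within a member's spread between samples were not detectable here.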
